A study of Mus musculus with 10 samples.

Results

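Glycolysis splits glucose to pyruvate in the cytosol, and lactate dehydrogenase can turn that pyruvate into lactate. Glucose 6-phosphate can also enter the pentose phosphate pathway, which yields NADPH for making fatty acids and pentoses for nucleotides, or be stored as glycogen. In fat cells these routes supply glycerol 3-phosphate and NADPH for building and storing triglyceride. The genes described here were chosen by name, as 33 enzymes, regulators and transporters of these routes, in a bulk RNA-seq series on visceral adipose tissue of tumour-bearing mice. They were set in 6 roles: glucose entry and phosphorylation, the phosphofructokinase step and its regulators, aldolase to pyruvate, lactate, the pentose phosphate pathway, and glycogen. Of the 33 genes, 32 were in the 2 deposited tables, which list 16667 genes with normalised counts and 29242 genes with TPM, a level scaled to transcript length and to the size of the library. Aldoa was not analysed here. All 32 were among the 14203 genes tested, whose mean reached 10 normalised counts, so none was lost to the filter on low values.

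The mice were wild type, of strain C57BL/6 and aged 10 weeks, 5 inoculated with orthotopic pancreatic tumours (KPC) and 5 given sham surgery. KPC names a mouse model of pancreatic cancer, and orthotopic means placed in the pancreas. The sources used here do not give the tumour line, its dose, the time since surgery or the sex of the mice. All titles carry the word gwat, a common short form of gonadal white adipose tissue. The first number in the title (1, 2 or 4) is shared by some KPC and sham mice, and its meaning is not given.

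Libraries held 20941200 to 22664200 normalised counts in KPC mice and 21933000 to 24449900 in sham mice. Fat cell markers were high in every library, with 39620 to 47340 summed TPM in KPC mice and 39224 to 47820 in sham mice over 10 genes. KPC mouse 1 stood apart. Mitochondrial transcripts made up 15.7% of its TPM, against 26.3% to 33.3% in the other 9 mice, and its 15 macrophage markers summed to 6450.0 TPM, against 1628 to 2375 in the other KPC mice and 945 to 1577 in sham mice. The fat cell sum weighs its most abundant genes, Fabp4 and Cfd, most. As an average of log2 normalised counts relative to the sham mean, the fat cell markers stood at -0.69 in KPC mouse 1. That average was -0.08 to -0.04 in the other KPC mice and -0.12 to 0.25 in sham mice. All 15 macrophage markers had a positive difference, and none passed after adjustment. The 16 skeletal muscle markers summed to 106 to 395 TPM in KPC mice, against 206, 133, 873, 2180.5 and 6188 TPM in sham mice 1 to 5, so sham mice 3, 4 and 5 carried the most muscle transcript. Red cell markers summed to 8558 to 40759 TPM in KPC mice and 4751 to 12883 TPM in sham mice. The 10 markers of pancreas or tumour epithelium summed to 16.6 to 44.4 TPM in KPC mice, highest in KPC mouse 1, and 20.2 to 32.8 TPM in sham mice. Most of that was Cela1, with 11.5 to 32.2 TPM in KPC mice and 12.3 to 22.03 TPM in sham mice, and Krt7, with 4.29 to 11.1 TPM in KPC mice and 4.18 to 11.6 TPM in sham mice. Muc1 and Cdh1 reached at most 1.05 TPM in KPC mice and 2.06 TPM in sham mice. The other 6, Prss2, Cpa1, Cel, Amy2a5, Ptf1a and Epcam, reached at most 0.124 TPM in any mouse, and Ptf1a was listed at 0 in all KPC mice. Of 9 markers of epididymis or testis, 5 were listed at 0 in all mice, and the list summed to at most 0.491 TPM. The part of these other cells in the differences below was not tested, apart from the values given without the libraries concerned.

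Most of the pathway's transcripts were at lower levels in the fat of KPC mice than of sham mice, but no gene of the 32 passed the test after adjustment over all genes (limma, Benjamini-Hochberg threshold 0.05), in either direction. Over all genes tested, 0.0493% passed as higher and 0.00704% as lower, 0.0563% in all. The log2 difference, KPC minus sham, was negative for 27 of the 32 genes, against 53.1% of all genes, and its median was -0.31, against -0.02 over all genes. Summed over the 32 genes, the level was 3674, 5479, 6299, 4486 and 5611 TPM in KPC mice 1 to 5, against 7459, 6157, 7074, 7539 and 5553 TPM in sham mice 1 to 5. The means were 5110 ± 1031 TPM in KPC mice and 6756 ± 868 TPM in sham mice (SD, n = 5 each), and the groups overlapped through KPC mice 3 and 5 and sham mice 2 and 5. In bulk tissue, fewer cells of a type and less RNA per cell cannot be told apart.

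Before adjustment, 11 of the 32 genes had a limma p under 0.05 as lower and 0 as higher, where 5.91% of all genes were lower and 7.61% higher at that level. The 11 were Pfkfb3, Pfkm, G6pdx, Ldhb, Tpi1, Pfkfb4, Pgk1, Pfkp, Gapdh, Pkm and Pgam1, in order of p. The count was 7 without KPC mouse 1, with 5.25% of all genes lower at that level. It was also 7 without KPC mouse 4 (5.63%), sham mouse 1 (5.79%), sham mouse 3 (4.49%) or sham mouse 4 (3.71%). Without sham mice 3, 4 and 5 together, a choice made after the data were seen, the count was 5, with 2.70% of all genes. That fit has fewer sham mice, so fewer genes can reach this p. The median difference of the 32 genes was then -0.43, against -0.31 with all mice, and 28 were negative. In 4 genes, Pfkfb3, Pfkm, Pgk1 and Ldhb, the normalised counts of all KPC mice lay below those of all sham mice, as in 1.28% of all genes. No gene had all KPC mice above all sham mice, as in 2.75% of all genes. Genes of a pathway can vary together, so these counts are not counts of independent results. The median correlation between pairs of the 32 genes, as deviations from the group means over 10 mice, was 0.28, and 0.12 over the 9 mice other than KPC mouse 1.

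**Figure D1:**
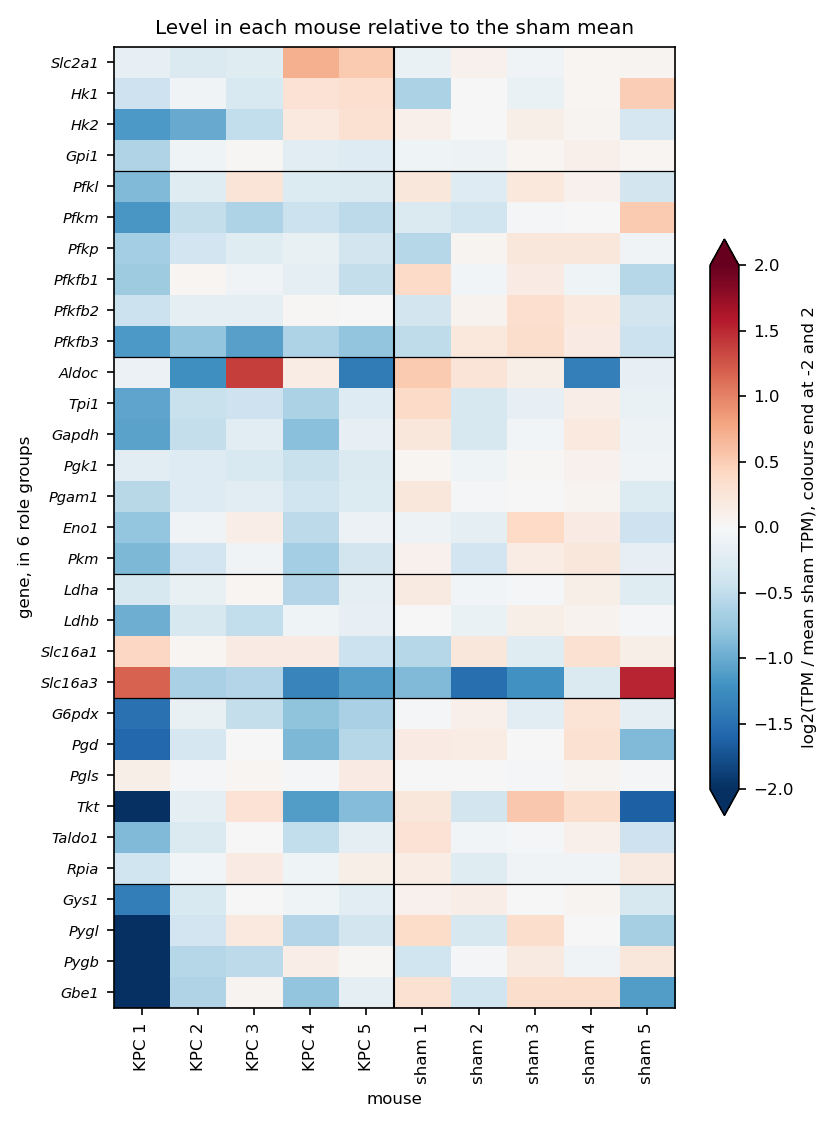
Level of each gene in each mouse as log2 of its TPM over the mean sham TPM, with genes down the page in the 6 roles and mice across, KPC mice at left; Pfkfb4, listed at 0 in all KPC mice, is left out. KPC mouse 1 has the lowest levels, with 28 of 32 genes below the sham mean on log2 normalised counts. Of the KPC mice, KPC mouse 3 is closest to the sham mice, with 16 of 32 below. The counts were 25, 26 and 25 in KPC mice 2, 4 and 5, and 9, 18, 17, 8 and 24 in sham mice 1 to 5.

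**Figure D2:**
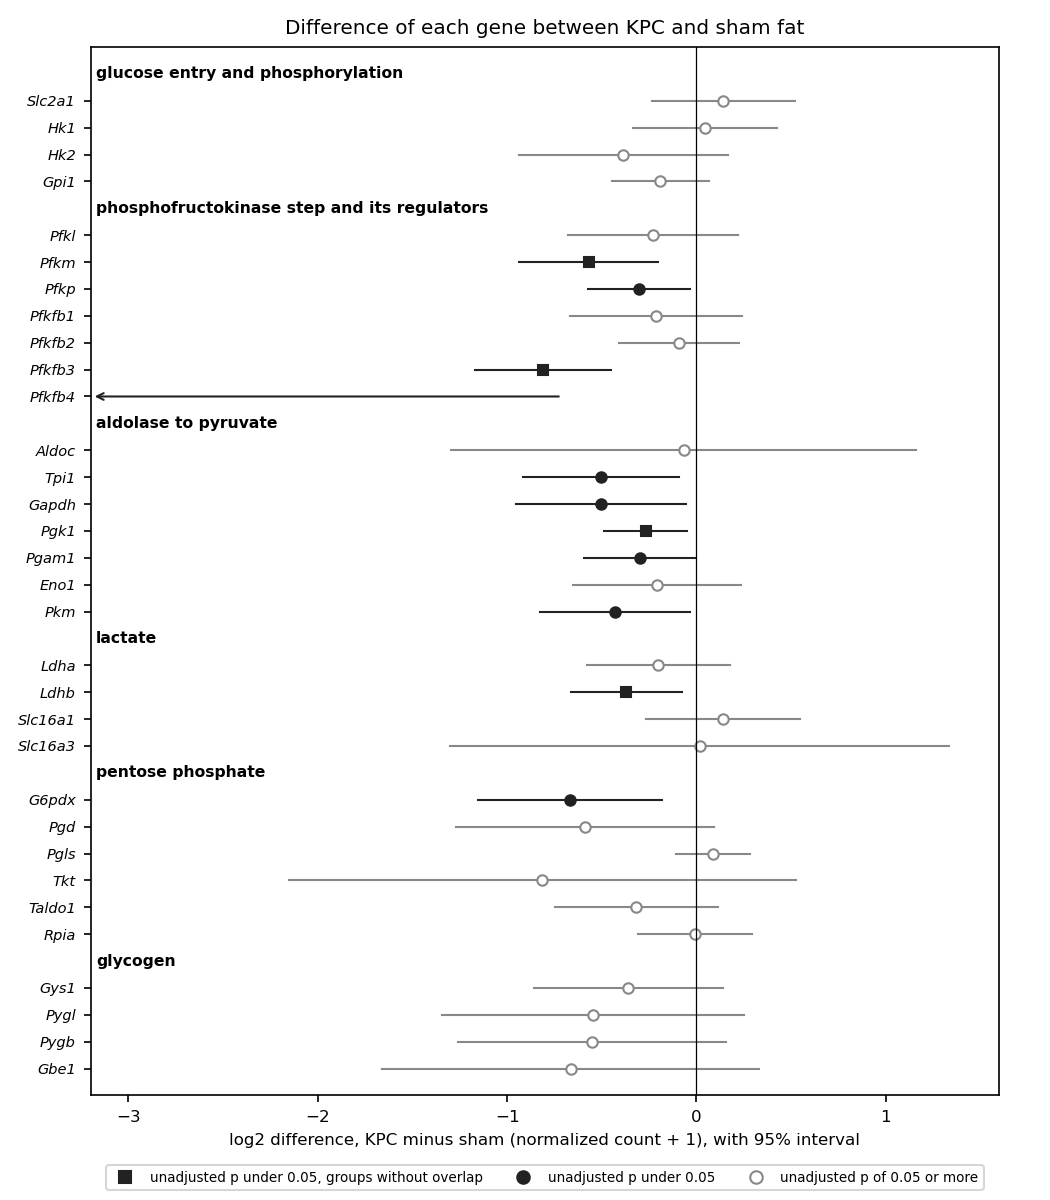
Log2 difference of each gene, KPC minus sham, on log2(normalised count + 1), with its 95% interval (limma, 5 mice per group). Points left of 0 are lower in KPC mice; 27 of 32 lie there, and none passed after adjustment. The arrow stands for Pfkfb4, whose fitted value lies beyond the axis.

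The sequences just upstream of the start sites of Pfkfb3, Pgk1 and Ldhb are shown because the groups did not overlap in these genes on normalised counts. Pfkm met the same condition, but it has 4 start sites in the table, and its windows are not printed. Hypoxia-inducible factors, well-known activators of glycolytic genes, bind a core that reads ACGTG or GCGTG. The related letters CACGTG are bound by MYC and ChREBP-type factors and contain ACGTG on both strands. Each window holds the 250 bases upstream of a RefSeq start site on GRCm38.p6, 5′ to 3′ on the gene's strand, with ACGTG and GCGTG on either strand in capitals. Pfkfb3 has 2 start sites in the table, with windows at chr2:11553930-11554179 and chr2:11502091-11502340 (minus strand). Pgk1 has its window at chrX:106186850-106187099 (plus strand) and Ldhb at chr6:142507958-142508207 (minus strand).
Pfkfb3 start 1: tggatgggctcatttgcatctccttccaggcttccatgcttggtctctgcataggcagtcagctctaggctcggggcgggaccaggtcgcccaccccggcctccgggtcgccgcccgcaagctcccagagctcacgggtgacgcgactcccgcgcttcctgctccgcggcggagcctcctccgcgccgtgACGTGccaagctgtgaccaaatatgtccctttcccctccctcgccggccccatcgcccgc
Pfkfb3 start 2: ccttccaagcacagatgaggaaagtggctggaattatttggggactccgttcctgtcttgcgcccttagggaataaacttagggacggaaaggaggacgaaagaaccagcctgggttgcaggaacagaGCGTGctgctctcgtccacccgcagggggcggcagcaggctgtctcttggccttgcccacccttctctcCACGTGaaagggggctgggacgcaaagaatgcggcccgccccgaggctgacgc
Pgk1: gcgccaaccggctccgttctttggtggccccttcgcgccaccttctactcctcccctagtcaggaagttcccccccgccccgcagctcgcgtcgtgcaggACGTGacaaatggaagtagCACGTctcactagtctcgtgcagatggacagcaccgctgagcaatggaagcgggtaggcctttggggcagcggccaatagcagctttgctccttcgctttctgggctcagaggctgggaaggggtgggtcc
Ldhb: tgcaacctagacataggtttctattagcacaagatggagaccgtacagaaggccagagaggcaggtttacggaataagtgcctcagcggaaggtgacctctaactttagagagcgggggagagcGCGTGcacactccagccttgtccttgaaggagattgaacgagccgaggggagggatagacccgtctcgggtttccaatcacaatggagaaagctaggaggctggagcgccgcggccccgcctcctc

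The second Pfkfb3 window holds a CACGTG and a GCGTG, the first Pfkfb3 window holds 1 ACGTG, the Pgk1 window holds the core on each strand, and the Ldhb window holds GCGTG. Of the 4 Pfkm windows, 3 hold a core, among them 1 with CACGTG, and 1 holds none. Over 48 windows of the 32 genes, ACGTG was found on either strand in 16 (33.3%), against 16.6% of the 32851 windows of all genes. GCGTG was found in 29 (60.4%), against 28.2%, and CACGTG in 5 (10.4%), against 6.02%. Either core stood in 37 windows (77.1%), against 38.6%. Windows of the same gene can overlap, as in Eno1, Pfkm and Pfkfb2, so the same letters can count more than once. The windows of all genes were not limited to the genes tested. Both cores are rich in G and C, and the median GC content was 59.8% in the windows of the 32 genes and 52.4% in all windows. A match describes letters only, and genes without p under 0.05 carried them too. The first Ldha window, for example, holds ACGTG 5 times, counted on both strands, where each of its 2 CACGTG counts on each strand.

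Glucose entry and phosphorylation showed no common direction: 2 of 4 genes had a negative difference, the median was -0.07, and none had p under 0.05. Gpi1, which turns glucose 6-phosphate into fructose 6-phosphate, had the highest level of the 4, with 82.1, 117, 127, 108 and 103 TPM in KPC mice 1 to 5, against 118, 116, 127, 133 and 128 TPM in sham mice 1 to 5. KPC mouse 1 was lowest and the groups overlapped (log2 difference -0.19 ± 0.12 SE, limma adjusted p = 0.487). Slc2a1, the basal glucose transporter, was 6.45 ± 2.17 TPM in KPC mice and 5.74 ± 0.37 TPM in sham mice (SD, n = 5 each). KPC mice 4 and 5, with 9.34 and 8.22 TPM, lay above every sham mouse, and KPC mice 1 to 3, with 4.70 to 5.10 TPM, lay below every one. Hk2, the insulin-responsive hexokinase, was split the same way, with 26.6 and 28.8 TPM in KPC mice 4 and 5 and 10.4 to 16.4 TPM in KPC mice 1 to 3, against 18.4 to 25.2 TPM in sham mice. KPC mice 4 and 5 share the title number 4, whose only sham mouse, sham mouse 5, had the lowest sham Hk2. Hk1, the constitutive hexokinase, was 14.5 ± 3.35 TPM in KPC mice and 14.6 ± 4.02 TPM in sham mice.

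The phosphofructokinase step, the main control point of glycolysis, held the gene with the smallest p. All 7 genes had a negative difference, with a median of -0.30, and 4 had p under 0.05. Pfkfb3 makes fructose 2,6-bisphosphate, the strongest activator of phosphofructokinase. The gene (ENSMUSG00000026773, chr2:11471433-11554077, minus strand, GRCm38) had 106, 135, 111, 153 and 135 TPM in KPC mice 1 to 5, against 164, 271, 298, 261 and 174 TPM in sham mice 1 to 5. Every KPC mouse was below every sham mouse, and sham mice 1 and 5 were nearest to the KPC range. The mean was 128 ± 19.5 TPM in KPC mice and 234 ± 60.7 TPM in sham mice (SD, n = 5 each), a ratio of 0.570 on the log2(normalised count + 1) scale (95% interval 0.444 to 0.732). Its limma p was 0.000408 and its adjusted p 0.0912, the smallest of the 32 genes, and it had p under 0.05 under all 22 alternatives tried. Within title numbers 1, 2 and 4 the log2 difference was -0.83, -1.18 and -0.27.

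Pfkfb3 was the main transcript of its family, with 74.0% ± 3.62 of the summed TPM of Pfkfb1 to Pfkfb4 in KPC mice and 80.7% ± 5.25 in sham mice (SD, n = 5 each). These enzymes both make and remove fructose 2,6-bisphosphate, in a balance that differs between isoforms. Pfkfb1 was 39.5 ± 8.01 TPM in KPC mice and 47.2 ± 10.9 TPM in sham mice, and Pfkfb2 was 5.29 ± 0.645 TPM in KPC mice and 5.86 ± 1.29 TPM in sham mice. The groups overlapped in both genes. The share of Pfkfb2 was 2.73% to 3.33% in KPC mice and 1.90% to 2.15% in sham mice, so the shares did not overlap although the levels did. Most of the sum is Pfkfb3, so a lower Pfkfb3 raises this share by itself, and it is not a separate result on Pfkfb2. Pfkfb4 was listed at 0 in all KPC mice and in sham mice 1 and 4, and at 2.26, 1.78 and 0.915 TPM in sham mice 2, 3 and 5. No fold is given for it (SE of the log2 difference 1.45, limma adjusted p = 0.299). It is among the 4 genes of this role counted at p under 0.05, and its difference rests on those 3 sham mice.

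The 3 phosphofructokinase subunits differed in size of difference. Pfkm, the muscle-type subunit (ENSMUSG00000033065, chr15:98092589-98132451, plus strand), had 7.05, 11.4, 10.3, 11.8 and 11.0 TPM in KPC mice 1 to 5, against 13.0, 12.1, 15.6, 15.7 and 22.8 TPM in sham mice 1 to 5. The groups did not overlap, though KPC mouse 4 and sham mouse 2 were close, and sham mouse 5, which had the most muscle marker transcript, was highest. The log2 difference was -0.57 ± 0.17 (SE, limma adjusted p = 0.218). It was -0.36 without sham mice 3, 4 and 5 and -0.41 with the muscle marker level as a covariate, in both cases no longer under the unadjusted threshold of 0.05. Pfkp, the platelet-type subunit, had 24.5, 29.9, 32.9, 35.3 and 30.2 TPM in KPC mice 1 to 5, against 26.3, 40.5, 45.8, 45.5 and 37.3 TPM in sham mice 1 to 5. Sham mouse 1 fell within the KPC range and the other 4 sham mice were above it (log2 difference -0.30 ± 0.12 SE, limma adjusted p = 0.329). Pfkl, the liver-type subunit, was 49.0 ± 13.5 TPM in KPC mice and 57.7 ± 10.6 TPM in sham mice and made up 53.9% ± 4.71 of the summed subunit TPM in KPC mice and 51.2% ± 7.59 in sham mice.

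**Figure D3:**
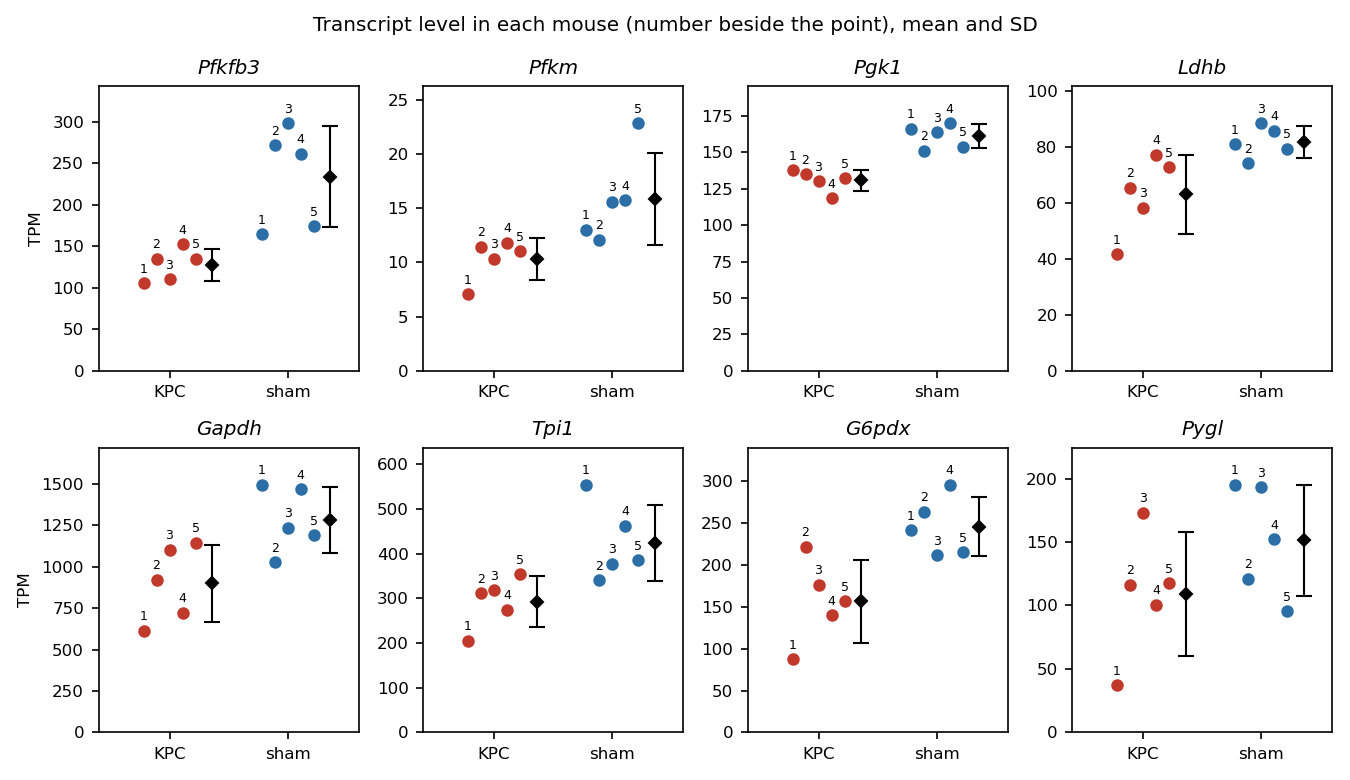
TPM in each mouse, with the replicate number beside the point and a diamond with bars for mean ± SD (n = 5 per group), KPC at left and sham at right in each panel. Pfkfb3 lies at 106 to 153 TPM in KPC mice and 164 to 298 TPM in sham mice, and Pgk1 at 118 to 138 TPM in KPC mice and 151 to 169.8 TPM in sham mice, both without overlap.

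From aldolase to pyruvate, all 7 genes measured had a negative difference, with a median of -0.30, and 5 had p under 0.05. Pgk1, which makes the first ATP of the pathway (ENSMUSG00000062070, chrX:106187100-106203699, plus strand), had 138, 135, 130.0, 118 and 132 TPM in KPC mice 1 to 5, against 166, 151, 164, 169.8 and 154 TPM in sham mice 1 to 5. All KPC mice were below all sham mice, within a narrow range in each group. The log2 difference was -0.27 ± 0.10 (SE, limma adjusted p = 0.299), and -0.30 without KPC mouse 1. Within title numbers 1, 2 and 4 it was -0.22, -0.21 and -0.29. KPC mouse 1, the library that stood apart, had the highest Pgk1 level of the KPC mice.

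Gapdh, the glyceraldehyde 3-phosphate dehydrogenase often used as a loading control, had 613, 922, 1104, 722 and 1146 TPM in KPC mice 1 to 5, against 1496, 1027, 1236, 1468 and 1192 TPM in sham mice 1 to 5. KPC mice 3 and 5 overlapped with sham mouse 2. The mean was 901 ± 233 TPM in KPC mice and 1284 ± 197 TPM in sham mice (SD, n = 5 each; log2 difference -0.50 ± 0.21 SE, limma adjusted p = 0.329). Tpi1, which interconverts the triose phosphates and so stands where glycerol 3-phosphate branches off, had 205, 312, 318, 275 and 354 TPM in KPC mice 1 to 5, against 554, 341, 377, 463 and 386 TPM in sham mice 1 to 5. KPC mouse 5 overlapped with sham mouse 2 alone (log2 difference -0.50 ± 0.19 SE, limma adjusted p = 0.298). Pkm, the pyruvate kinase of most tissues, had 201, 288, 357, 233 and 289 TPM in KPC mice 1 to 5, against 400.3, 288, 415, 438 and 334 TPM in sham mice 1 to 5. KPC mice 3 and 5 reached into the sham range, and KPC mouse 2 stood at its lower edge (log2 difference -0.43 ± 0.18 SE, limma adjusted p = 0.335).

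Pgam1, a phosphoglycerate mutase, was 197 ± 18.8 TPM in KPC mice and 248 ± 31.4 TPM in sham mice (SD, n = 5 each), with an adjusted limma p of 0.369. Eno1, the main enolase, was 424 ± 102 TPM in KPC mice and 498 ± 109 TPM in sham mice, with wide overlap. Aldoc, the brain-type aldolase, was 0.251 to 1.73 TPM in KPC mice and 0.257 to 0.951 TPM in sham mice, too low to describe the aldolase step. Summed over the 7 genes, the level was 1619 to 2672 TPM in KPC mice and 2487 to 3376 TPM in sham mice. KPC mice 3 and 5 were inside the sham range and the other 3 KPC mice below it.

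In GENCODE vM21, exons of Slc2a1, Hk1, Gpi1, Pfkm, Pfkp, Pfkfb1, Pfkfb2, Tpi1, Gapdh, G6pdx and Gys1 overlap those of a gene on the opposite strand. The sources used here do not give the strand setting, so it is not known whether reads from the overlapping stretches could be told apart. The length of these stretches was not measured. Exons of Pfkm, Pfkfb2, Pkm, Pgls and Tkt overlap those of a gene or gene model on the same strand, which a strand setting would not separate. Those of the remaining genes, among them Pfkfb3, Pgk1, Ldhb, Ldha, Taldo1 and Pygl, overlap no other gene. Gapdh also has many processed copies in the mouse genome, between which the authors' quantification could split reads.

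Of the lactate genes, 2 of 4 had a negative difference, with a median of -0.09. Ldhb, the heart-type lactate dehydrogenase subunit (ENSMUSG00000030246, chr6:142490249-142507957, minus strand), had 41.5, 65.4, 58.2, 77.1 and 72.6 TPM in KPC mice 1 to 5, against 80.9, 74.1, 88.4, 85.7 and 79.2 TPM in sham mice 1 to 5. On TPM, KPC mouse 4 overlapped with sham mouse 2, while on normalised counts the groups did not overlap. The log2 difference was -0.37 ± 0.13 (SE, limma adjusted p = 0.289), and -0.25 without KPC mouse 1. Ldha, the muscle-type subunit that favours lactate, had 888, 1002, 1144, 740.4 and 976 TPM in KPC mice 1 to 5, against 1259, 1065, 1092, 1201 and 944 TPM in sham mice 1 to 5. The groups overlapped (log2 difference -0.20 ± 0.17 SE, limma adjusted p = 0.629). Ldha made up 93.6% ± 1.98 of the summed Ldha and Ldhb TPM in KPC mice and 93.1% ± 0.71 in sham mice, and the shares of the groups overlapped.

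The monocarboxylate transporters carry lactate across the cell membrane. Slc16a1 was 27.0 ± 5.41 TPM in KPC mice and 25.2 ± 5.92 TPM in sham mice (SD, n = 5 each). Slc16a3, an exporter of highly glycolytic cells, was 1.33 to 2.21 TPM in KPC mice 2 to 5 and 7.53 TPM in KPC mouse 1, against 1.16 to 2.70 TPM in sham mice 1 to 4 and 9.47 TPM in sham mouse 5. A single high mouse in each group made the interval wide (log2 difference 0.02 ± 0.60 SE, 95% interval -1.30 to 1.34).

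In the pentose phosphate pathway, 5 of 6 genes had a negative difference, with a median of -0.45, and G6pdx alone had p under 0.05. G6pdx, the first and rate-limiting enzyme and a source of NADPH (ENSMUSG00000031400, chrX:74409483-74429194, minus strand), had 87.6, 222, 177, 140.1 and 157 TPM in KPC mice 1 to 5, against 242, 264, 212, 296 and 215 TPM in sham mice 1 to 5. KPC mouse 2 overlapped with sham mice 3 and 5, and the other 4 KPC mice were below every sham mouse. The mean was 157 ± 49.3 TPM in KPC mice and 246 ± 35.2 TPM in sham mice (SD, n = 5 each; log2 difference -0.67 ± 0.22 SE, limma adjusted p = 0.262). Without KPC mouse 1 the difference was -0.49.

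Pgd, the second NADPH-yielding enzyme, was 137 to 407 TPM in KPC mice and 223 to 505 TPM in sham mice (log2 difference -0.59, limma adjusted p = 0.428). Pgls, which works between G6pdx and Pgd, was 95.4 ± 5.57 TPM in KPC mice and 91.8 ± 2.16 TPM in sham mice (SD, n = 5 each). Its log2 difference was 0.09 with a 95% interval of -0.11 to 0.28, so its interval excluded a difference of the size of that of G6pdx. The difference between the 2 genes was not tested. In the non-oxidative branch, Taldo1 had 312, 469, 580.1, 407 and 504 TPM in KPC mice 1 to 5, against 703, 556, 568, 616 and 430.3 TPM in sham mice 1 to 5. KPC mouse 3 was above sham mice 2, 3 and 5, so the groups overlapped (log2 difference -0.32 ± 0.20 SE, limma adjusted p = 0.492).

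Tkt, transketolase, had 27.6 TPM in KPC mouse 1 and 117 to 310.3 TPM in the other KPC mice, against 82.5 TPM in sham mouse 5 and 199 to 369 TPM in the other sham mice. Its log2 difference was -0.81 ± 0.61 (SE, limma adjusted p = 0.577), and -0.28 without KPC mouse 1. In size it was like that of Pfkfb3, whose SE was 0.16. Rpia, which isomerises ribose 5-phosphate, was 20.1 ± 2.93 TPM in KPC mice and 20.6 ± 2.49 TPM in sham mice.

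All 4 glycogen genes had a negative difference, with a median of -0.55, but none had p under 0.05. Pygl, the liver-type glycogen phosphorylase and the highest of the 4, had 37.4, 116, 173, 100.5 and 118 TPM in KPC mice 1 to 5, against 195, 121, 193, 152 and 95.5 TPM in sham mice 1 to 5. KPC mouse 1 was far below all the others, and the remaining mice overlapped (log2 difference -0.55 ± 0.36 SE, limma adjusted p = 0.528). Without KPC mouse 1 the differences were -0.22 for Pygl, -0.20 for Pygb, the brain-type phosphorylase, -0.26 for Gbe1, the branching enzyme, and -0.13 for Gys1, the glycogen synthase of tissues other than liver. With all mice they were -0.55 for Pygb, -0.67 for Gbe1 and -0.36 for Gys1. KPC mouse 1 was the lowest mouse in all 4 genes.

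**Figure D4:**
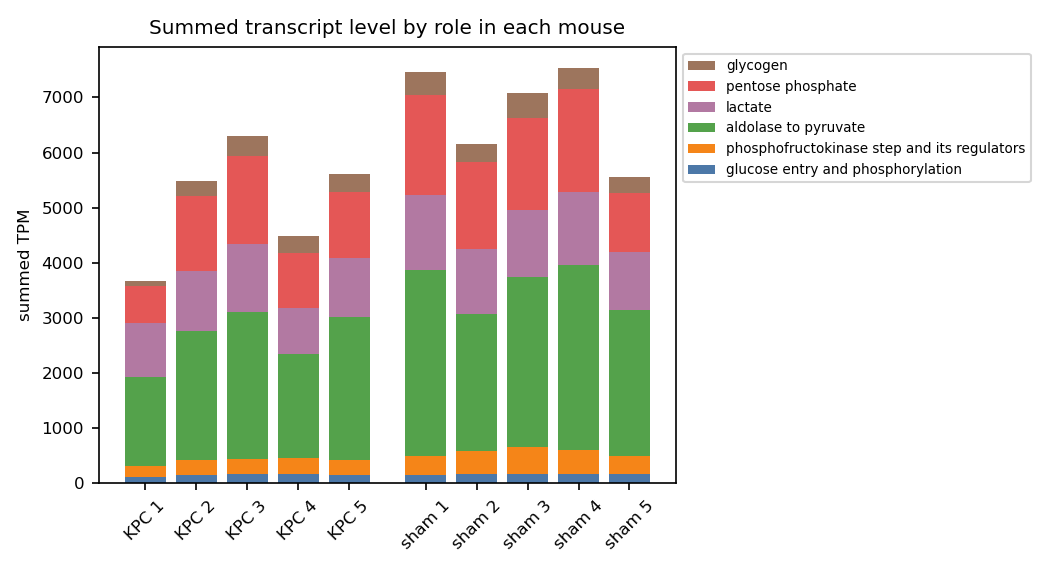
Summed TPM of the 6 roles, stacked for each mouse, KPC mice at left. The genes from aldolase to pyruvate take the largest share in every mouse, and the total is 3674 TPM in KPC mouse 1, the lowest, and 7539 TPM in sham mouse 4, the highest.

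Between title numbers, 12 of the 32 genes (37.5%) were lower in KPC mice within each of the numbers 1, 2 and 4, against 18.0% of all genes. Pgls alone, 1 of the 32, was higher in each, against 15.4% of all genes. Each number holds 1 or 2 mice per group, so these are values without a test. Tkt differed by -1.64 within number 1, -0.01 within number 2 and 0.64 within number 4, and Gbe1 by -1.50, -0.14 and 0.63. In both genes the negative difference lay mainly in number 1, which holds KPC mouse 1.

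Further genes of the same routes, taken from lists, gave 0 calls after adjustment. Of 18 other genes of glycolysis and glucose uptake tested, 4 had p under 0.05 as lower and 1 as higher, and the median was -0.07. Of all genes tested, 5.91% were lower and 7.61% higher at that level. Eno3 and Pgam2, muscle-type isoenzymes described below, were among the 4. Fbp2, the muscle-type fructose bisphosphatase, was lowest in p, with 0.186, 0.289, 0.184, 0.385 and 0.311 TPM in KPC mice 1 to 5, against 0.702, 0.676, 1.30, 0.900 and 2.13 TPM in sham mice 1 to 5. The groups did not overlap, at a very low level (log2 difference -1.79 ± 0.40 SE, limma adjusted p = 0.114). Slc2a4, the insulin-responsive glucose transporter of fat and muscle, was 30.4 TPM in KPC mouse 1 and 106 to 157 TPM in the other KPC mice, against 117 to 169.9 TPM in sham mice. Its difference was -0.53, and -0.13 without KPC mouse 1. Hk3, a hexokinase of myeloid cells, was 9.25 TPM in KPC mouse 1, the mouse with the most macrophage marker transcript. It was 2.85 to 3.49 TPM in the other KPC mice, against 2.16 to 2.79 TPM in sham mice (log2 difference 0.66 ± 0.30 SE, limma adjusted p = 0.369). The groups of Hk3 did not overlap on TPM but overlapped on normalised counts. Slc2a3, a high-affinity glucose transporter, differed by 0.36 with overlap. Tigar, which lowers fructose 2,6-bisphosphate, differed by -0.31 (limma adjusted p = 0.359).

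The muscle-type isoenzymes were high in the same sham mice as the muscle markers. Eno3 was 7.17 to 14.6 TPM in KPC mice, against 10.0, 6.37, 29.2, 69.9 and 196 TPM in sham mice 1 to 5. Pgam2 was 1.00 to 6.32 TPM in KPC mice, against 2.84, 1.87, 15.6, 26.2 and 93.5 TPM in sham mice 1 to 5. Pygm, the muscle glycogen phosphorylase, was 2.56 to 8.85 TPM in KPC mice, against 5.54, 4.66, 23.2, 37.6 and 124 TPM in sham mice 1 to 5. Sham mice 3, 4 and 5 exceeded every KPC mouse in all 3 genes, and sham mice 1 and 2 lay within or just below the KPC range. The log2 difference of Pygm was -2.04, and -0.19 without these 3 sham mice. Eno3 made up 1.33% to 3.15% of summed enolase TPM in KPC mice and 1.42% to 34.0% in sham mice. Of the 32 genes themselves, Pfkm made up 21.7% of subunit TPM in sham mouse 5, against 12.0% to 12.9% in the other sham mice.

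**Figure D5:**
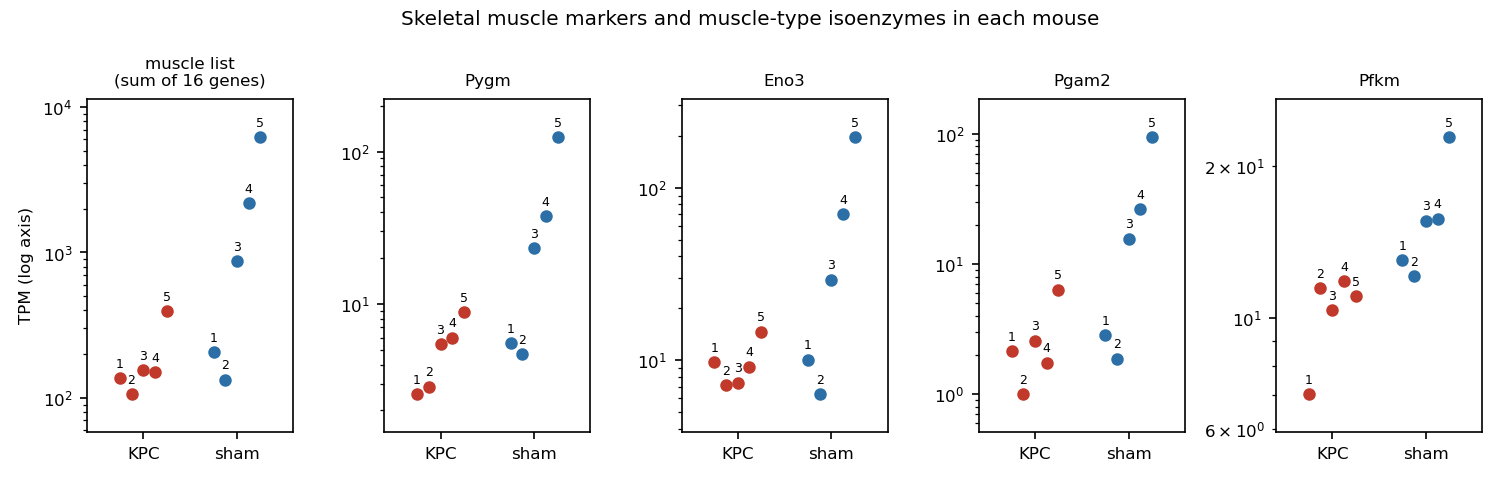
Summed TPM of the 16 skeletal muscle markers and TPM of Pygm, Eno3, Pgam2 and Pfkm in each mouse (replicate number beside the point) on log axes, KPC at left and sham at right in each panel. The marker sum is 106 to 395 TPM in KPC mice and 133 to 6188 TPM in sham mice, and sham mouse 5 is highest in all 5 panels.

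Of 7 other pentose phosphate genes, Rpe, the ribulose phosphate epimerase, had p under 0.05, with a log2 difference of -0.32 (limma adjusted p = 0.358). H6pd, which makes NADPH inside the endoplasmic reticulum, differed by 0.20, and Prps2, which uses the ribose 5-phosphate, by 0.17, neither with p under 0.05. Of 25 other glycogen genes, 7 had p under 0.05 as lower and 20 had a negative difference, with a median of -0.27. Of all genes tested, 5.91% were lower at that level and 53.1% had a negative difference. Phkb, a subunit of phosphorylase kinase and one of the 7, differed by -0.42 ± 0.16 (SE, limma adjusted p = 0.305). Ppp1r3a, the muscle glycogen-targeting subunit, was at most 0.118 TPM in KPC mice and 2.07 TPM in sham mouse 5. Ppp1r3a and Pygm were also among the 7, and both were highest in sham mice 3, 4 and 5, which carried the most muscle transcript. The part of muscle in this count was not tested.

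Among regulators and hypoxia-inducible genes, negative differences were the minority. Of 20 regulators, 7 had a negative difference, against 53.1% of all genes, with a median of 0.05. Hif1a, the oxygen-regulated subunit of hypoxia-inducible factor, was 32.6 ± 5.03 TPM in KPC mice and 31.0 ± 4.62 TPM in sham mice (SD, n = 5 each). Mlxipl, which encodes the glucose-sensing factor ChREBP, differed by -0.19 with overlap. Egln3, a prolyl hydroxylase that marks hypoxia-inducible factor for degradation, differed by -0.52 (limma adjusted p = 0.409). Myc, a transcription factor that can activate glycolytic genes, had 29.3, 14.1, 14.2, 17.8 and 17.5 TPM in KPC mice 1 to 5, against 11.7, 13.1, 10.8, 12.2 and 9.22 TPM in sham mice 1 to 5. Every KPC mouse was above every sham mouse, and KPC mouse 1 was highest (log2 difference 0.69 ± 0.20 SE, limma adjusted p = 0.221). Nfe2l2, which activates pentose phosphate genes in other settings, differed by 0.23 (limma adjusted p = 0.374).

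Of 13 hypoxia-inducible genes outside glycolysis, 5 had a negative difference, with a median of 0.09. Limma p was under 0.05 as higher in 2 of the 13, against 7.61% of all genes. Adm, the peptide hormone adrenomedullin, had 23.1, 20.2, 14.6, 23.0 and 18.3 TPM in KPC mice 1 to 5, against 7.14, 10.6, 12.7, 10.5 and 10.7 TPM in sham mice 1 to 5. All KPC mice were above all sham mice (log2 difference 0.97 ± 0.15 SE, limma adjusted p = 0.0605). Ddit4 is an inhibitor of mTORC1 that stress and glucocorticoids also raise. It was 43.1 to 122 TPM in KPC mice and 23.7 to 44.3 TPM in sham mice (log2 difference 1.01 ± 0.29 SE, limma adjusted p = 0.205). On TPM the groups overlapped, while on normalised counts all KPC mice were above all sham mice. KPC mice 4 and 5 were again the high ones, with 122 and 119 TPM. P4ha1, a collagen prolyl hydroxylase, differed by 0.22 with overlap.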

How the data were processed

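Visceral adipose tissue of 5 KPC and 5 sham mice was measured by RNA-seq. The authors deposited gene counts normalised between samples (non-whole values, handled as a signal) and TPM, in 2 tables. The submitters' processing notes name mm10, Salmon, DESeq and DESeq2; the sources used here do not give versions, annotation, filters or the strand setting. Groups and replicate numbers came from the labels.

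Because the deposited values were not whole reads, log2(normalised count + 1) was fitted in R 4.3.3 by limma 3.58.1 (trended variance) for all genes averaging 10 or more, with Benjamini-Hochberg adjustment over all of them. The pseudocount understates differences of low genes. SDs and p-values cover the spread between 5 samples per group; levels are TPM. The script was tested on simulated data. The members and lists were chosen with earlier results of these data known. Every-mouse values were given for the 10 members with the smallest p, members without overlap and the highest member of each role; from other lists, 3 genes by p, those without overlap and a fixed set. Single pancreas markers were added to the names once their values had been seen. Gene positions were taken from GENCODE vM21 (GRCm38) by Ensembl identifier, and sequences from RefSeq. Alternatives were TPM, pseudocounts of 0.5 and 5, filters, quantile normalisation, variance models, blocks, a muscle covariate and each mouse left out.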

Additional observations from a re-analysis of the deposited data

Results flagged for a closer look

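Within each group of 5 mice, a sample was listed where its gap to the nearest other exceeded Dixon's 95% limit, in 105 groups over 53 genes. The limit is passed by chance at a rate of about 5%, and 8 were listed. Among the members, 3 genes were listed, each with KPC mouse 1 as the low sample. Pfkm was 7.05 TPM there, against 10.3 to 11.8 TPM in the other KPC mice. Gys1 was 18.8 TPM, against 39.7 to 49.4 TPM, and Pygb was 26.0 TPM, against 73.9 to 119 TPM. Among the other genes, KPC mouse 1 had 30.4 TPM of Slc2a4, against 106 to 157 TPM in the other KPC mice, 29.3 TPM of Myc, against 14.1 to 17.8 TPM, and 9.25 TPM of Hk3, against 2.85 to 3.49 TPM. In sham mice, Ddit4 was 23.7 TPM in sham mouse 5, against 31.5 to 44.3 TPM in the others. Nfe2l2 was 35.7 TPM in sham mouse 1, against 33.4 to 34.6 TPM in the others. In all, 6 of the 8 came from KPC mouse 1. That mouse also had the lowest mitochondrial share, the lowest average of fat cell markers and the most macrophage marker transcript.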

How the results depend on the processing

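No member passed after adjustment under any of the 22 alternatives, and 25 to 28 of the 30 to 32 members tested had a negative difference. The smallest adjusted limma p, that of Pfkfb3, ran from 0.0858 to 0.702. The 11 members at p under 0.05 became 7 with the replicate number as a block, where 5.99% of all genes were lower at that level. They became 5 without sham mice 3, 4 and 5 (2.70% of all genes). With each mouse left out in turn they became 7 to 13 (3.71% to 6.54% of all genes). Of the 11, Pfkfb3 and G6pdx kept a limma p under 0.05 in all 22 alternatives, Tpi1 and Ldhb in 21, Pfkm in 20 and Pgk1 in 19. Pfkfb4 did so in 16 of 21, Pfkp and Gapdh in 14 of 22, Pkm in 12 and Pgam1 in 7. Same-numbered mice did not vary together in all pairs (correlations of 0.07, 0.19, 0.01, 0.02 and 0.17), so the numbers were not taken as pairs. Over all genes, the 7 called higher became 2 on TPM, 2 without the variance trend, 3 with the replicate block, 3 with the title number as a block, 0 with the muscle covariate, 3 without sham mice 3, 4 and 5, and 1 to 66 with each mouse left out, 66 being without KPC mouse 1. The 1 called lower became 0 on TPM and 1 to 4 with each mouse left out.

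Differences near 0 changed sign. The log2 difference of Hk1 was -0.052 with the title number block and -0.062 to 0.17 with a mouse left out. The log2 difference of Aldoc was 0.00530 on TPM, 0.041 with the title number block and -0.47 to 0.21 with a mouse left out. The log2 difference of Slc16a3 was -0.0343 on TPM, -0.027 with quantile normalisation, -0.059 with the title number block and -0.42 to 0.50 with a mouse left out. The log2 difference of Rpia was 0.017 with the muscle covariate and -0.076 to 0.074 with a mouse left out. Without sham mice 3, 4 and 5, the log2 difference of Pgls was -0.013 and the log2 difference of Eno3 was 0.15. The cause was not tested, and depth as read counts is unknown.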
